A study of Mus musculus with 54 samples.

Results

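The genes described here are the ligands and receptors of the 4 classical families of axon guidance: the semaphorins with their plexin and neuropilin receptors, the ephrins with the Eph receptors, the Slits with the Robos, and netrin-1 with Dcc and the Unc5 receptors. They were chosen by symbol among the protein-coding genes of the count table, which gave 66 of 55354 mouse genes (20 semaphorins, 9 plexins, 2 neuropilins, 8 ephrins, 14 Eph receptors, 3 Slits, 4 Robos, 1 netrin and 5 netrin receptors). Of these, 32 encode ligands and 34 encode receptors. Motor neurons had been cut by laser capture microdissection, and their RNA sequenced, from 3 cranial sites and 1 spinal one: CN3/4, the oculomotor and trochlear neurons that move the eyes, CN10, those of the vagus nerve, CN12, the hypoglossal neurons of the tongue, and SC, those of lumbar spinal cord. The mice were SOD1G93A transgenics, called mSOD, or their wild-type littermates, taken at postnatal day 56 (P56), before symptoms, or at the later, symptomatic age of P112, as the submitters describe them. There were 16 groups by nucleus, age and genotype, with 3 libraries in 13 of them and 5 in the other 3, which were the SC groups other than mSOD at P112. The libraries are biological replicates by the submitters' account, and the promoter of the transgene and the number of animals or cells behind a library are not given in the sources used here. SOD1G93A is a human gene with an amino acid change that causes a form of amyotrophic lateral sclerosis (ALS), and the wild-type littermates lack it.

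Guidance molecules steer growing axons by attraction and repulsion. Semaphorins bind plexins directly or, for most secreted members, through a complex of a plexin with a neuropilin. Ephrins are membrane-bound and signal in both directions on contact with Eph receptors, Slits are secreted ligands of Robos, and netrin-1 attracts axons through Dcc and can repel them through Unc5 receptors. In developing motor neurons these systems set the path of the axon out of the neural tube and its choice of muscle, and many of the genes remain expressed in the adult, where they are studied in synapse maintenance and nerve repair.

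Total counts ran from 1071477 to 8877994 per library (median 4231342.5), and the 66 genes together took 0.111% to 0.179% of a library's counts. Spinal Hox genes, a list of 11, summed to 172.84 to 400.02 CPM (counts scaled to a common library size) in the 18 SC libraries and to at most 2.55 CPM in the 36 cranial ones. A list of 6 visceral motor and hindbrain genes, summed to 1880 to 2834 CPM in CN10, where each of the 6 was detected in each library. The transcription factor Tbx20, a member of the list, had a median of 59.5 CPM in CN10, 4.94 in CN3/4 and 0 in CN12 and SC. In CN3/4 this list summed to 48.9 to 126 CPM and in SC to 1.01 to 156 CPM. In the 12 CN12 libraries the sum was 17.1 to 984 CPM; the 3 mSOD libraries at P112 held the upper end (203.9, 371 and 984 CPM) through 1 gene, the neuropeptide Gal, with Tbx20 at no more than 0.413 CPM in CN12. The 11 motor neuron markers were detected in each library. The human SOD1 transgene took 3.95% to 7.94% of counts in the mSOD libraries and at most 0.00459% in the wild-type ones. Library names carry 1 of 3 prefixes, called projects here, and the labels do not say what they stand for. The 12 libraries of project P6362, all SC, had the lowest median depth (2485920 counts).

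Promoter sequences are shown for the genes on which the results below turn: Plxna3, Nrp2, Sema3a and Ephb2, which differed by genotype in SC, and Sema5a, Plxnc1 and Sema7a, which set CN10 apart. Each window runs from 250 bases before to 50 bases after the RefSeq transcription start (GRCm38.p6), printed 5′ to 3′ on the gene's strand, with capitals for the GC box GGGCGG or its reverse complement CCGCCC. The windows are chrX:74328816-74329115 (plus strand) for Plxna3, chr1:62703067-62703366 (plus) for Nrp2, chr5:13396534-13396833 (plus) for Sema3a, chr4:136835963-136836262 (minus) for Ephb2, chr15:32244563-32244862 (plus) for Sema5a, chr10:94944796-94945095 (minus) for Plxnc1 and chr9:57939862-57940161 (plus) for Sema7a.
Plxna3: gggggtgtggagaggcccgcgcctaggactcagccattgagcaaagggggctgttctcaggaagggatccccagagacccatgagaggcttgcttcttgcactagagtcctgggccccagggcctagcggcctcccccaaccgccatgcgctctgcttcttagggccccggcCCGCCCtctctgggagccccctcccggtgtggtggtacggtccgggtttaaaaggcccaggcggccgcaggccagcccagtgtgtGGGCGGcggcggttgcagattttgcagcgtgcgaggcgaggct
Nrp2: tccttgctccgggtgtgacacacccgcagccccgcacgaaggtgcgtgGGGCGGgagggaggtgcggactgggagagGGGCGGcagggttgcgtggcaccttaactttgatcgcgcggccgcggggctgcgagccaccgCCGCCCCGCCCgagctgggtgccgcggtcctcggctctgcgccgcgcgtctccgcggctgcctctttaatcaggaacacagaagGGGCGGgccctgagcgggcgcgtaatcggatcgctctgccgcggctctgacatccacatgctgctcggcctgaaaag
Sema3a: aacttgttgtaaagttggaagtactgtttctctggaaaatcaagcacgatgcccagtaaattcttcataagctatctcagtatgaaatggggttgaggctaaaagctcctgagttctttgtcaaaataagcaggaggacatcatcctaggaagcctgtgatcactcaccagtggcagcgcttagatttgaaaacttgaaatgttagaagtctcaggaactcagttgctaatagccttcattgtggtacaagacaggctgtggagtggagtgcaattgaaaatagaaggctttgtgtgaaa
Ephb2: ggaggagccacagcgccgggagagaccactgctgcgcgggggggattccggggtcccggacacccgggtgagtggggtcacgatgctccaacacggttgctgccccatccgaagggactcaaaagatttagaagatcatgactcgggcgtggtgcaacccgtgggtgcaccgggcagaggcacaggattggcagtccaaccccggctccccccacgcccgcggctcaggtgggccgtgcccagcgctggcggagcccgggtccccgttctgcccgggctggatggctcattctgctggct
Sema5a: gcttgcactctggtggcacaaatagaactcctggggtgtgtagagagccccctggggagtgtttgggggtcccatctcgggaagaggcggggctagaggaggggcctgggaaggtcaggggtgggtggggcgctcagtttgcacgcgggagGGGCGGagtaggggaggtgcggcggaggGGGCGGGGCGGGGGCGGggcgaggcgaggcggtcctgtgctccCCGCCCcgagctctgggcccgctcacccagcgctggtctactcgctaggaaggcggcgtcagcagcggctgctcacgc
Plxnc1: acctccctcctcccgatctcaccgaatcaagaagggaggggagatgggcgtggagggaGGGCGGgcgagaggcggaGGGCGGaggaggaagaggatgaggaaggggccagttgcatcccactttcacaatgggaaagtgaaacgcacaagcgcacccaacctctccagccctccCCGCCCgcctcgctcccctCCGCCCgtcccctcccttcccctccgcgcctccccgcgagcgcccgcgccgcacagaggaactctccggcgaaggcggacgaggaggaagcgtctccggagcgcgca
Sema7a: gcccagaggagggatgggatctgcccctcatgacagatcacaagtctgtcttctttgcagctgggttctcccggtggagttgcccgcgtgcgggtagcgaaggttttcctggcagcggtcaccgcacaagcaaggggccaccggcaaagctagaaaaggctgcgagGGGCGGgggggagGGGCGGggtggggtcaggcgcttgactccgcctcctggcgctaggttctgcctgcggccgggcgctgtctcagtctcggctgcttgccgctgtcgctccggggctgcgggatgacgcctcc
The Sema3a window stood apart in composition, with 41.3% G and C and 2 CpG dinucleotides, against 67.3% to 71.3% and 18 to 37 CpG in the other 6. GC boxes were found 5 times in Nrp2 and Sema5a, 4 times in Plxnc1 and 2 times in Plxna3 and Sema7a, counting overlapping copies, and in neither the Sema3a nor the Ephb2 window. In the RefSeq table, 35.7% of all 32851 windows of this length, those of noncoding genes included, held a GC box on either strand, and 51 of the 72 windows of the 56 guidance genes that could be matched did (70.8%). The homeodomain core TAATTA was present in 5.29% of all windows and in 3 of those 72, and the cAMP response element TGACGTCA in 1.79% and in 1. Neither of these was in the 7 windows printed.

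Most guidance genes were still expressed in these adult motor neurons at the main cut-off, though not in each group at a higher one. At a median of at least 1 RPKM (reads per kilobase of gene and library depth, computed by the authors), 36 to 47 of the 66 genes were expressed per group, the fewest in CN10 P56 mSOD and the most in CN12 P112 wild type. With a cut-off of 0.5 RPKM the range was 45 to 52 genes, and with 2 RPKM it was 30 to 42. By RPKM over the 28 wild-type libraries pooled, the highest member of each family was Slit3 (median 54.8), the neuropilin Nrp1 (18.8), the transmembrane semaphorin Sema6a (13.3), the ephrin Efna5 (9.76), the plexin Plxna4 (9.23), the catalytically inactive Eph receptor Epha10 (9.19), the netrin receptor Unc5a (8.47), Robo2 (5.39) and Ntn1 (0.207). The highest member differed between nuclei: by median RPKM it was Nrp2 (21.6) and Sema7a (16.9) in SC, and Sema4d (26.01), Plxnb2 (13.9) and Unc5d (23.2) in CN10, while Slit3 was the highest Slit in each. The order of Slit3 depends on length: the counts and RPKM values of Slit3 imply a median length of 1141 bases, against 8124 bases for Slit2, and in counts alone Slit2 was above Slit3, with a median of 113 against 60.9 CPM in wild-type SC. Plxnb2 also had a short implied length (735 bases), so ranks between genes are those of the authors' RPKM scale and not of transcript number. The table also lists 3 antisense genes of Plxna4, which are not protein coding and were left out, and since Smart-seq2 libraries keep no strand, reads of Plxna4 and of these cannot be told apart.

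Of the 66 genes, 57 passed the filter on low counts and were tested with edgeR's quasi-likelihood test, adjusted over 18493 genes. The 9 that were not tested were Sema3f, Sema3g, Sema4c, Plxnd1, Efna4, Epha1, Ephb4, Robo3 and Robo4, each with at most 2.76 CPM in any wild-type library. The comparisons between nuclei asked how motor neuron groups of different vulnerability in ALS differ in the absence of the transgene. In wild-type mice, with both ages combined (6 libraries per cranial nucleus, 10 for SC), 47 of the 57 genes differed in at least 1 of the 6 pairs of nuclei at an adjusted p under 0.05, and 32 in at least 3, where 54.4% and 28.7% of all genes tested did. Among the 10 that passed in none were the receptors Plxna4, Robo2 and Epha10 and the ligand Ntn1.

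**Figure D1:**
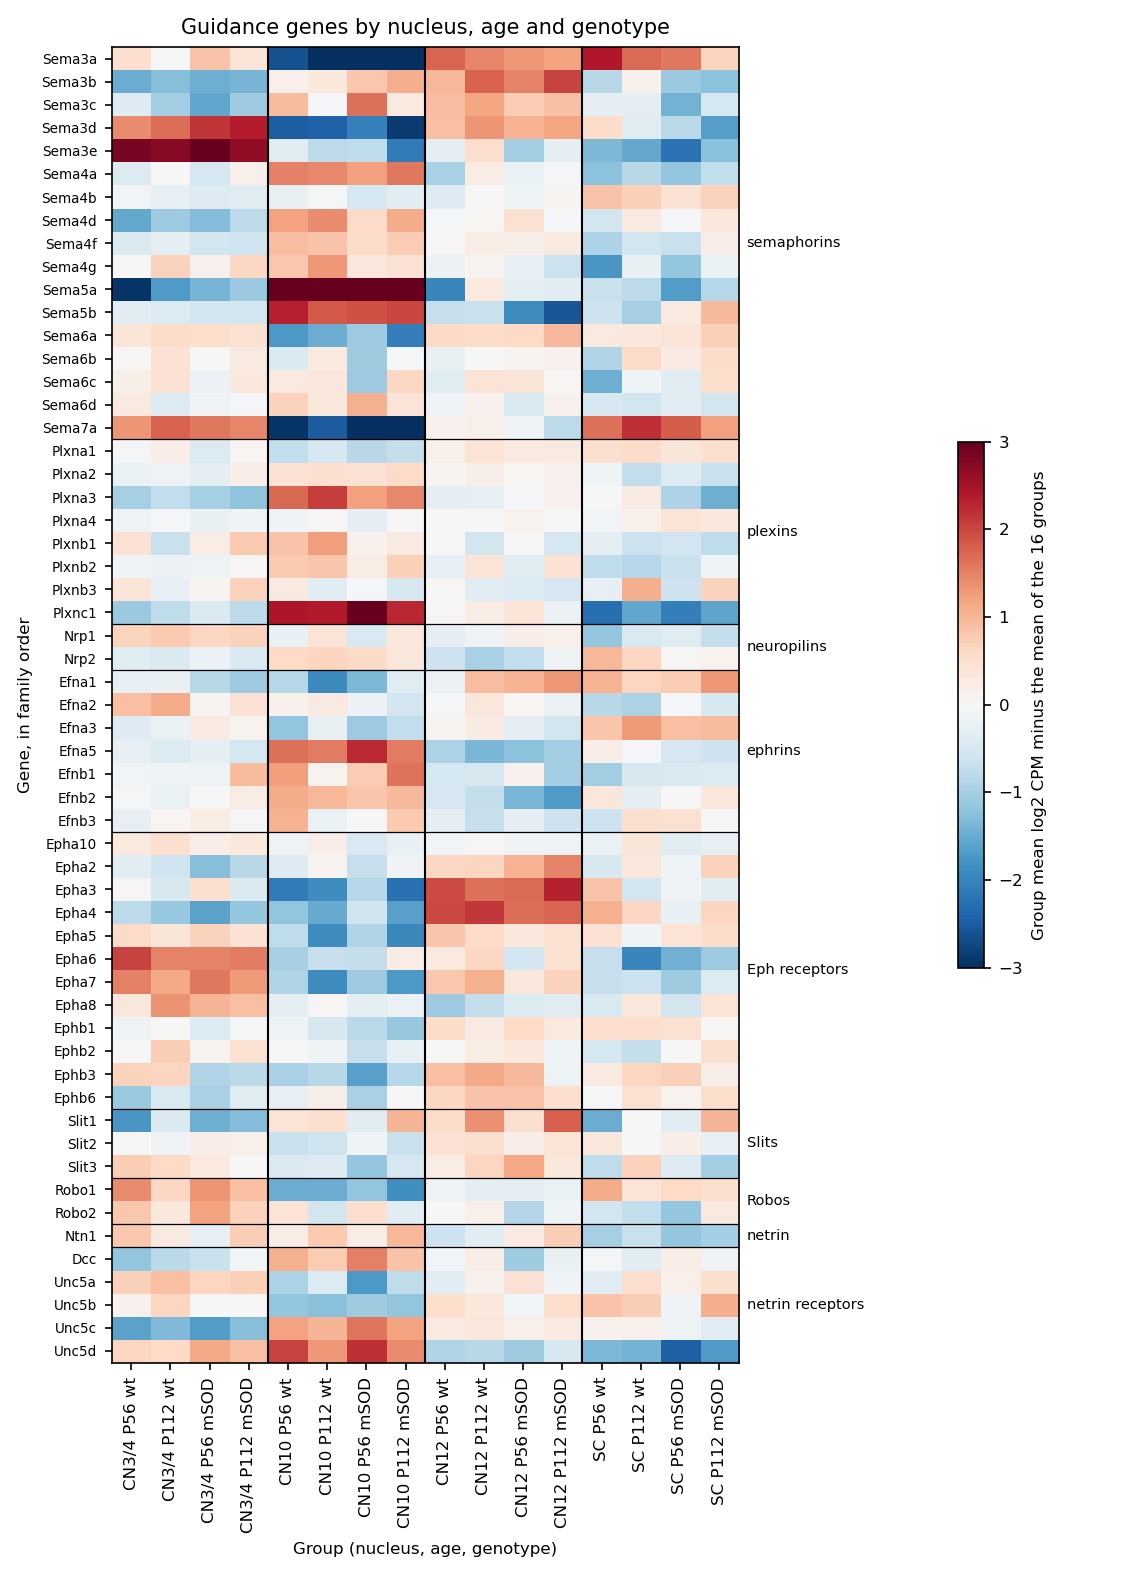
Heat map of the 57 tested guidance genes (rows, in family order) over the 16 groups (columns, by nucleus, genotype and age); colour gives the group mean log2 CPM minus the mean of the 16 groups, and colours saturate at differences of 3. In the 4 CN10 columns, Sema5a and Plxnc1 are above and Sema3a, Sema3d and Sema7a below each of the other 12 columns.

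CN10 differed most. Against SC, 33 of 57 guidance genes were called (17 higher and 16 lower in CN10), where 37.7% of all genes tested were called. Against CN12 it was 32 (14 higher, 18 lower; 29.9% of all genes), and between CN3/4 and CN10 it was 38 (18 higher and 20 lower in CN3/4; 37.9% of all genes). The median absolute log2 difference was 1.12, 1.09 and 1.11 over the guidance genes and 0.67, 0.52 and 0.61 over all genes tested. These 3 comparisons share the CN10 libraries. In wild type, 10 genes were higher in CN10 than in each of the other 3 nuclei (Sema4a, Sema4d, Sema4f, Sema5a, Sema5b, Plxna3, Plxnc1, Efna5, Unc5c and Unc5d), and 12 were lower than in each (Sema3a, Sema3d, Sema6a, Sema7a, Plxna1, Efna1, Epha3, Epha5, Epha7, Slit2, Robo1 and Unc5b). The share of all genes that set CN10 apart in this way was not computed. The 11 motor neuron markers summed to 5385 to 6668 CPM in the 12 CN10 libraries and 9731 to 32721 CPM in the 42 others. The neurofilament genes carried most of that gap (Nefh had a median of 78.95 CPM in CN10 and 1252 to 3377 in the other nuclei). Slc5a7 (356.7 against 629.5 to 902.8 CPM), Slc18a3 (295.7 against 432.9 to 587.4) and Calca (3.15 against 261.1 to 1782) also had their lowest medians in CN10. Prph was highest in CN10 (827 against 195.1 to 692.6 CPM), and Uchl1, Chat, Ache and Isl1 lay within the range of the other medians. Among the 12 astrocyte markers, S100b was lower in CN10 (median 19.4 against 455 to 887 CPM). The list summed to 380.5 to 718 CPM in CN10, where Aldoc had the largest median (354.6 CPM), and to 663.7 to 1800 CPM elsewhere. Slc1a3 (29.3 against 0.834 to 2.78 CPM), Gja1, Gjb6, Agt and Gfap instead had their highest medians in CN10. Microglial markers had a higher median sum in CN10 (40.7 CPM against 16.5 to 18.7), with overlapping ranges, as did those of oligodendrocyte precursors (57.8 against 22.5 to 40.01 CPM), while oligodendrocyte markers summed to 107 to 202.5 CPM in CN10 and 166 to 1084 CPM elsewhere. Their part in the CN10 differences was not tested. In RNA of pooled cells, fewer cells of a type and less RNA per cell cannot be told apart.

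Of the 17 semaphorins tested, cues that mostly repel axons, 8 were higher and 4 were lower in CN10 than in SC, where 18.4% and 19.3% of all genes were. Sema5a, a transmembrane semaphorin with thrombospondin repeats, had a median of 180.3 CPM in wild-type CN10 (lowest 167, highest 229), against 3.95 in CN3/4 (0.217 to 11.1), 12.5 in CN12 (3.79 to 28.1) and 11.4 in SC (3.55 to 38.7). The CN10 libraries lay above every other wild-type library for this gene. The log2 difference was 3.43 against SC (SE 0.48, adjusted p 2.1e-07), 4.18 against CN12 and, for CN3/4 minus CN10, −5.37 (SE 0.50). The class 4 semaphorins Sema4a, Sema4d and Sema4f, membrane-bound ligands, were higher in CN10 than in SC by 2.54, 2.00 and 1.60 on the log2 scale. Sema4d had a median of 34.3 CPM in CN10, 4.77 in CN3/4, 14.8 in CN12 and 14.2 in SC, and its CN10 libraries (24.3 to 36.7) did not overlap the others.

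Sema3a, the secreted repellent that acts through Nrp1 and A-type plexins, was at the other end. It was counted at 0 to 3.06 CPM in the 6 wild-type CN10 libraries (median 2.16), where the other nuclei had medians of 19.0 (CN3/4), 52.7 (CN12) and 72.9 CPM (SC), and CN10 overlapped none of them. The log2 difference from SC was −5.52 (SE 0.35, adjusted p 2.4e-18). Sema3a was also lower in CN3/4 than in SC (−2.07, SE 0.29, adjusted p 3.6e-07) and than in CN12 (−1.34, SE 0.27). Sema7a, a lipid-anchored semaphorin that binds integrins and Plxnc1, was likewise lowest in CN10, with 0.337 to 1.92 CPM in CN10, 8.89 to 13.2 in CN12, 22.5 to 44.7 in CN3/4 and 13.3 to 73.7 in SC. Its difference from SC was −4.26 in CN10 (SE 0.33, adjusted p 2.5e-15) and −0.999 in CN12 (SE 0.27, adjusted p 0.0156), with no overlap in either. Sema3d was lower in CN10 than in SC by 3.07 (CN10 0 to 3.22 CPM, SC 4.64 to 24.2), and Sema6a by 2.01 (9.37 to 37.5 against 50.9 to 101 CPM).

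Sema3e, a secreted semaphorin that can bind its plexin, Plxnd1, without a neuropilin, marked CN3/4. It was at 29.9 to 59.7 CPM there (median 45.5), against medians of 5.11 in CN10, 7.31 in CN12 and 1.55 in SC, and CN3/4 overlapped only CN12. The log2 differences were 3.43 against SC (SE 0.69, adjusted p 0.000372), 3.36 against CN10 and 2.13 against CN12. Plxnd1 itself was among the genes too low to test, with at most 2.19 CPM in wild type. Sema3b had at most 2 counts in any wild-type CN3/4 library (0 to 0.470 CPM), against 12 to 27 counts in wild-type CN12 (2.36 to 6.31 CPM), and passed in that comparison (adjusted p 0.000361). Sema3c was also lower in CN3/4 than in CN12 (median 14.4 against 52.1 CPM; −1.61, SE 0.39, adjusted p 0.00426).

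**Figure D2:**
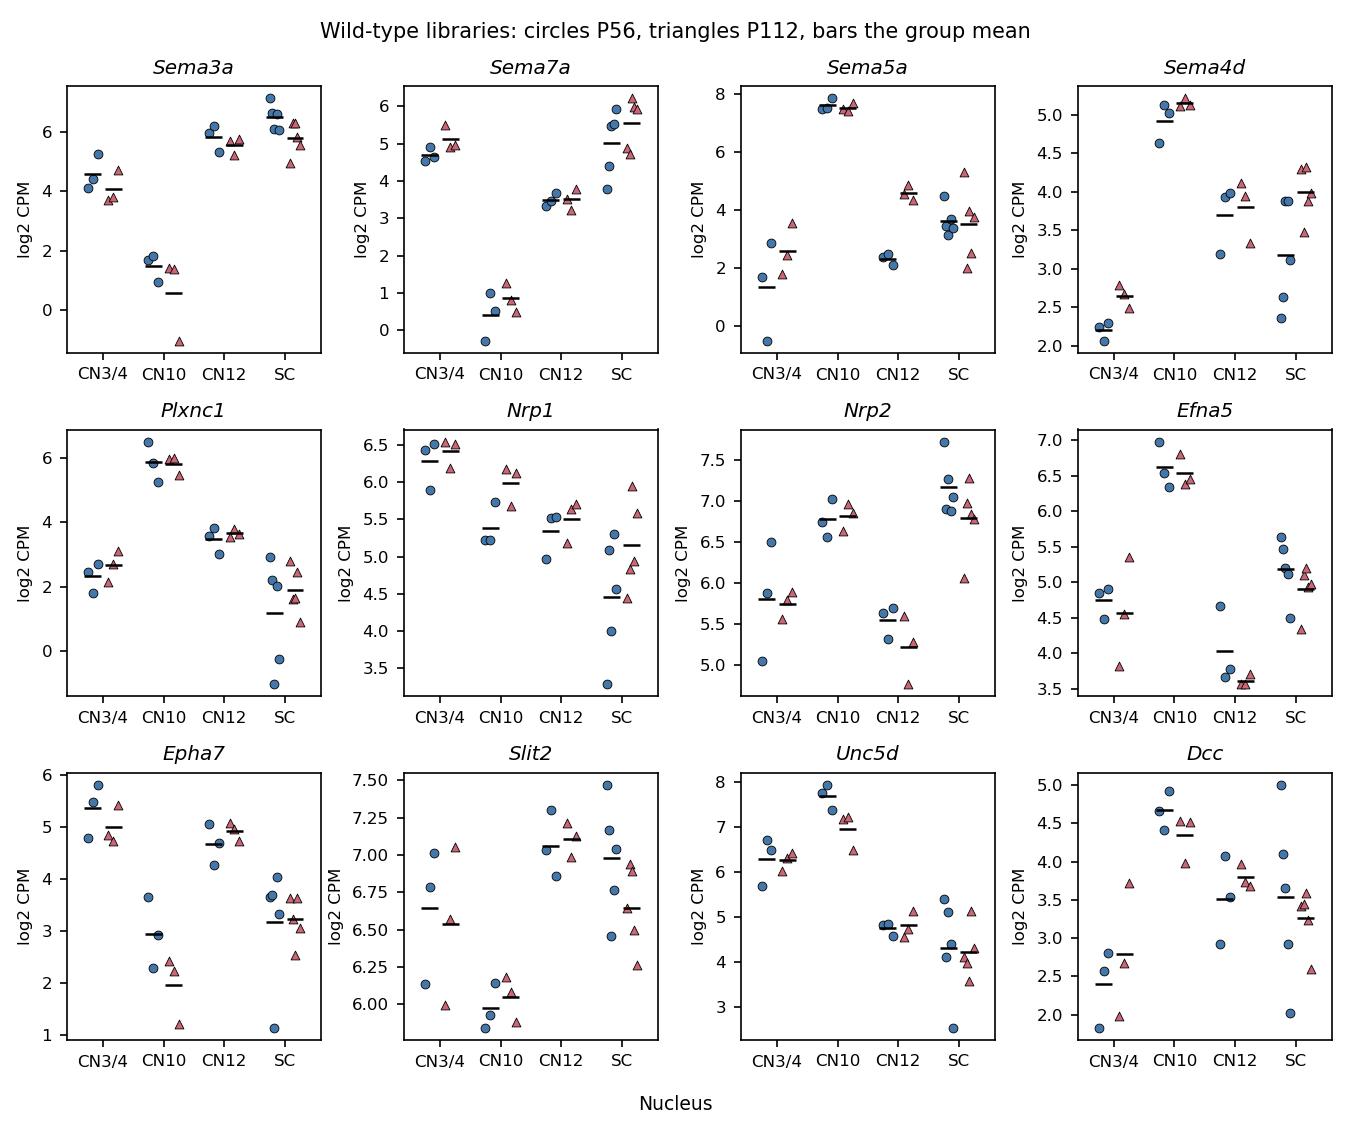
Levels of 12 guidance genes in the 28 wild-type libraries (log2 CPM, y axis) by nucleus (x axis); each point is a library, circles P56 and triangles P112, and bars are group means. Sema5a, Plxnc1 and Unc5d are highest in CN10, where Sema3a and Sema7a lie below every other library shown.

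Among the receptors of the semaphorins, Plxnc1, the receptor of Sema7a, was highest where Sema7a was lowest. It was at 37.7 to 90.9 CPM in CN10 (median 59.5) and had medians of 5.53 in CN3/4, 11.7 in CN12 and 3.11 in SC, with no overlap between CN10 and the other nuclei. The difference from SC was 3.66 for CN10 (SE 0.38, adjusted p 3.1e-11) and 1.31 for CN12 (SE 0.37, adjusted p 0.0231). Plxna3, which with Nrp2 forms a receptor of class 3 semaphorins, was at 38.3 to 65.2 CPM in CN10 and no more than 22.6 CPM in the rest of the wild-type libraries. Plxnb2 and Plxna2 were higher in CN10 than in SC too (1.77 and 0.73), and Plxna1 was lower (−1.04, SE 0.21, adjusted p 5.5e-05). Of the 8 plexins tested, 4 were higher and 1 was lower in CN10 than in SC (18.4% and 19.3% of all genes).

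The 2 neuropilins differed between the same nuclei in unlike ways. Nrp1, the co-receptor for Sema3a, had a median of 88.2 CPM in CN3/4 (59.3 to 93.0), 51.8 in CN10, 45.7 in CN12 and 29.2 in SC (9.24 to 61.3). CN3/4 was above each other nucleus and SC below each: 1.76 for CN3/4 against SC (SE 0.25, adjusted p 6.2e-07), 1.10 for CN10 against SC and 0.84 for CN12 against SC (SE 0.25, adjusted p 0.0326). Only the CN3/4 and CN12 libraries did not overlap. Nrp2 was high in CN10 (94.3 to 130.5 CPM) and SC (66.5 to 212) and low in CN3/4 (32.5 to 89.9) and CN12 (26.7 to 51.2). It was lower than SC by 1.71 in CN12 (SE 0.21, adjusted p 6.9e-08) and by 1.27 in CN3/4 (SE 0.20, adjusted p 7.0e-06), and between CN10 and SC it was not called.

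Of the 12 Eph receptors tested, 6 were lower in CN10 than in SC and 8 were lower than in CN12, and 0 were higher in either comparison. Over all genes tested, 19.3% were lower and 18.4% higher than in SC, and 15.4% lower and 14.4% higher than in CN12. The median log2 difference of the Eph receptors was −0.87 against SC and −1.23 against CN12, beside −0.0062 and −0.022 over all genes. Between CN3/4 and CN10, 5 Eph receptors were higher and 1 was lower in CN3/4, where 19% and 18.9% of all genes were. Epha4, a receptor of both A and B ephrins that guides limb motor axons, was at 27.73 to 32.04 CPM in CN12 (median 29.5) and 6.81 to 33.4 in SC, but at 1.46 to 6.29 in CN3/4 and 0.691 to 5.46 in CN10. Neither of the low nuclei overlapped CN12 or SC. Against SC the difference was −2.20 in CN3/4 (SE 0.44, adjusted p 0.000201) and −2.54 in CN10 (SE 0.45, adjusted p 6.5e-06); CN12 and SC overlapped and were not called. Epha7 was highest in CN3/4 (26.1 to 55.8 CPM) and CN12 (18.9 to 33.4), with medians of 10.8 in SC and 4.66 in CN10, and it was higher than SC by 1.69 in CN3/4 (SE 0.34, adjusted p 0.000277) and 1.28 in CN12. Epha6 was higher in CN3/4 than in each other nucleus, by 2.69 against SC (9 of 12 fits without 1 library lost the call against CN12), and Epha5 was lower in CN10 than in each (−1.83 against SC, SE 0.23). Epha3 had a median of 14.01 CPM in CN12 and 0.464 in CN10. Epha8 had 2 counts or fewer in each wild-type CN12 library and 5 to 15 in wild-type CN3/4 (adjusted p 0.0312), a call that some fits without 1 library lost.

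Of the 7 ephrins tested, Efna5 had the clearest order. This ligand of A-type Eph receptors was at 81.1 to 126 CPM in CN10, 19.8 to 49.2 in SC, 13.6 to 40.3 in CN3/4 and 11.3 to 25.0 in CN12. CN10 overlapped no other nucleus. Efna5 was higher in CN10 than in SC by 1.37 (SE 0.27, adjusted p 4.6e-05) and lower in CN12 than in SC by 1.41 (SE 0.27, adjusted p 0.000551). Efna3 was lower in CN3/4 (−0.98) and CN10 (−1.36) than in SC, where it was at 17.6 to 41.8 CPM, and its CN3/4 and CN10 libraries lay below that range. Efnb2 was higher in CN10 than in CN12 by 1.45 (SE 0.50, adjusted p 0.0229), a call that 4 of 12 fits without 1 library lost.

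Slit2, a secreted ligand of Robos, was at 56.8 to 72.0 CPM in CN10 (median 63.8) and had medians of 102 in CN3/4, 135 in CN12 and 113 in SC. It was lower in CN10 than in SC by 1.08 (SE 0.17, adjusted p 7.5e-07), without overlap. Robo1 was at 2.53 to 6.79 CPM in CN10, 8.48 to 16.4 in CN12, 13.6 to 54.1 in SC and 15.8 to 48.4 in CN3/4. It was lower than SC in CN10 (−2.51, SE 0.32, adjusted p 5.7e-09) and in CN12 (−1.18, SE 0.30, adjusted p 0.0102), and between CN3/4 and SC it was not called. Robo2 had medians of 11.496 to 30.4 CPM and passed in no pair of wild-type nuclei.

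The netrin receptors separated CN3/4 from CN10. Ntn1 itself was low in each nucleus (medians 0.518 to 2.42 CPM) and was not called. Unc5d was at 89.6 to 242 CPM in CN10 and 51.0 to 104 in CN3/4, against 23.2 to 34.8 in CN12 and 5.35 to 41.6 in SC. It was higher than SC by 2.89 in CN10 (SE 0.33, adjusted p 8.3e-10) and by 1.85 in CN3/4 (SE 0.33, adjusted p 3.7e-05), with no overlap in either. Unc5c was highest in CN10 and lowest in CN3/4: 46.5 to 76.2 CPM in CN10, 17.2 to 46.2 in SC, 26.4 to 42.7 in CN12 and 6.17 to 14.1 in CN3/4. Its difference between CN3/4 and SC was −1.99 (SE 0.23, adjusted p 3.0e-09) and that between CN3/4 and CN10 was −2.58 (SE 0.21). Dcc, the attractive receptor, was lower in CN3/4 (median 5.65 CPM) than in SC (10.3; −1.41, SE 0.32, adjusted p 0.00119), CN12 (12.6) and CN10 (22.5). Unc5a was higher in CN3/4 than in each, by 0.99 against SC (SE 0.25, adjusted p 0.00353), with medians of 36.7 CPM in CN3/4 and 27.1 in SC.

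CN3/4, whose neurons are known to be spared in ALS, differed from SC, whose neurons degenerate, in 19 of 57 genes (10 higher, 9 lower; 15.5% of all genes were called). From CN12 it differed in 19 as well (9 higher, 10 lower; 8.8% of all genes). The 10 genes higher in CN3/4 than in SC were Nrp1, Sema3e, Sema4g, Sema6c, Efnb1, Epha6, Epha7, Ephb2, Unc5a and Unc5d, and the 9 lower were Sema3a, Sema5a, Plxna3, Nrp2, Efna3, Epha2, Epha4, Dcc and Unc5c. Of the 16 genes with a log2 difference of at least 1 in this comparison, 11 passed in each alternative setting and each fit without 1 library. The 5 that did not were Sema6c, Efnb1, Sema5a, Plxna3 and Epha2, and without project P6362 Sema5a, Plxna3 and Epha2 did not pass. When SC P112 wild-type replicate 1 was left out, the adjusted p of Sema5a was 0.209, and when SC P56 wild-type replicate 2 was, that of Plxna3 was 0.166. Between CN12 and SC, both vulnerable in ALS, 9 genes were called (5 higher in CN12: Sema4f, Sema4g, Plxnc1, Nrp1 and Epha7; 4 lower: Sema7a, Nrp2, Efna5 and Robo1; 6.15% of all genes). The median absolute log2 difference over the guidance genes was 0.71 for this pair, 0.81 for CN3/4 against SC and 0.50 for CN3/4 against CN12. Over all genes tested it was 0.37, 0.43 and 0.31, in the same order. For CN12 against SC, the count of 9 was 14 without the project term. It fell to 4 without SC P112 wild-type replicate 2, and to 5 without SC P56 wild-type replicate 1 or CN12 P112 wild-type replicate 2. Over all genes these 4 fits called 1735, 631, 686 and 731, against 1137 in the main fit. Nrp2 and Efna5 were the named genes that passed throughout.

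The same nuclei were compared in mSOD mice, whose groups hold none of the wild-type libraries. Both sets of comparisons came from 1 model with a shared term for project, so they are not independent. In mSOD, 31 genes were called in CN10 against SC (31.9% of all genes), 33 in CN10 against CN12 (37.1%), 36 in CN3/4 against CN10 (38.6%), 27 in CN3/4 against CN12 (26.4%), 13 in CN12 against SC (15.6%; 8 without CN12 P112 mSOD replicate 2 or SC P112 mSOD replicate 2) and 11 in CN3/4 against SC (7.46%). Fitted with only the groups compared, the counts against SC were 14 for CN10, 1 for CN12 and 6 for CN3/4. Those fits tested 50 guidance genes and called 2246, 376 and 616 of all genes, in that order. Without the project term, the fit for CN3/4 against SC called 23 guidance genes and 3404 of all genes. Against the main fit, calls over all genes moved in the same direction as those of the guidance genes. In CN10 against SC, 28 genes were called in both genotypes, 84.8% of the wild-type and 90.3% of the mSOD calls, and each had the same sign. For CN3/4 against CN10 it was 32 (84.2% and 88.9%), and for CN3/4 against SC it was 9 (47.4% and 81.8%), again with the same signs. It was 27 for CN10 against CN12 (84.4% and 81.8%), 13 for CN3/4 against CN12 (68.4% and 48.1%) and 5 for CN12 against SC (55.6% and 38.5%), all with the same sign. The overlap of calls over all genes was not computed. Among the wild-type calls, the sign turned in mSOD for Plxna3 and Ephb2 (CN3/4 against SC), Dcc (CN3/4 against CN12), Epha6 (CN10 against CN12) and Ephb3 (CN3/4 against CN10). None of these 5 was called in mSOD (adjusted p of 0.16 or more).

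By mean level, the nucleus with the highest expression was the same at both ages and in both genotypes for 36 of the 57 genes: 16 with CN10, 11 with CN3/4, 6 with CN12 and 3 with SC. The same share over all genes was not computed. The 11 of CN3/4 were Sema3d, Sema3e, Nrp1, Efna2, Epha6, Epha7, Epha8, Epha10, Robo1, Robo2 and Unc5a. The 6 of CN12 were Sema3b, Slit1, Slit2, Epha2, Epha3 and Epha4. Sema3a and Nrp2 were among the genes whose top nucleus changed: Sema3a was highest in SC except in P112 mSOD, where it was highest in CN12, and Nrp2 was highest in SC in P56 wild type and in CN10 in the other 3 sets.

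Genotypes were compared within each nucleus, to ask whether guidance genes changed with disease. In SC, with both ages averaged, 4 of 57 genes were called, where 2.8% of all genes (517) were. Plxna3, Nrp2 and Sema3a were lower and Ephb2 was higher in mSOD. Without SC P112 mSOD replicate 3, 2 guidance genes and 269 of all genes were called. Plxna3 and Nrp2 form a receptor complex for class 3 semaphorins, and Ephb2 is a receptor of B-type ephrins. Sema3a belongs to class 3 but acts through A-type plexins with Nrp1, which was not called here. A link between these differences was not tested. The median log2 difference over the 57 genes was −0.018, and over all genes 0.025. Summed motor neuron markers were lower in SC P56 mSOD (16219 to 22321 CPM) than in SC P56 wild type (26632 to 32721), and 3 of the 11 were called lower in this comparison, with a median log2 difference of −0.35. Their part in the differences described next was not tested.

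Nrp2 was counted at 211.7, 119.9, 154, 117 and 132 CPM in the 5 wild-type SC libraries at P56, and at 81.9, 60.2, 66.8, 89.6 and 73.7 CPM in the 5 mSOD libraries. Each mSOD library lay below each wild-type one. At P112 it was at 66.5, 125, 155, 115 and 109.6 CPM in wild type and 100.6, 88.1 and 51.8 CPM in mSOD, and the arms overlapped through wild-type replicate 1. Over both ages Nrp2 fell by 0.73 on the log2 scale (SE 0.16, adjusted p 0.00457), and at P56 alone the difference was −0.85 (SE 0.23, adjusted p 0.0592). Its genotype difference in CN3/4 was 0.04 (SE 0.19), in CN10 −0.17 and in CN12 0.31, each with an adjusted p of at least 0.577.

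Plxna3 was counted at 9.78, 20.5, 17.3, 17.2 and 10.3 CPM in wild-type SC at P56 and at 10.1, 9.71, 6.17, 12.7 and 2.53 CPM in mSOD. At P112 the values were 10.8, 15.4, 20.4, 22.6 and 20.9 CPM in wild type and 7.56, 7.19 and 2.02 CPM in mSOD. The arms overlapped at P56 and not at P112. Plxna3 fell by 1.24 over both ages (SE 0.27, adjusted p 0.00419), and at P112 alone the difference was −1.63 (SE 0.45, adjusted p 0.0804). These values rest on 6 to 93 counts per SC library.

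Sema3a was counted at 140.0, 98.3, 67.7, 95.5 and 66.3 CPM in wild-type SC at P56 and at 48.6, 55.4, 52.2, 58.3 and 41.6 CPM in mSOD, again with each mSOD library below each wild-type one. At P112 it was at 30.6, 78.8, 78.2, 56.7 and 46.4 CPM in wild type and 23.5, 51.0 and 15.1 CPM in mSOD, with overlap. Over both ages it fell by 0.93 (SE 0.23, adjusted p 0.0118). At P56 the fitted difference was −0.43 (SE 0.31, adjusted p 0.611) although the arms did not overlap: the 2 highest wild-type libraries came from project P11355, all 5 mSOD libraries from P6362, and the fit has a term for project. Without SC P112 mSOD replicate 3, the library with the lowest Sema3a, the adjusted p over both ages was 0.0754.

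Ephb2 was counted at 3.80, 7.70, 11.6, 6.52 and 8.55 CPM in wild-type SC at P56 and at 6.13, 11.98, 16.8, 9.76 and 11.2 CPM in mSOD. At P112 it was at 6.81, 13.0, 5.33, 4.64 and 4.18 CPM in wild type and 23.3, 10.2 and 14.1 CPM in mSOD. The arms overlapped at both ages. Ephb2 rose by 0.90 over both ages (SE 0.26, adjusted p 0.0457), but 14 of 18 fits without 1 library lost the call, with an adjusted p of up to 0.111, and so did the fits without a filter on low counts (0.0667), without the project term (0.104), with SC groups alone (0.064) and with P6362 alone (0.147). Plxna3 and Nrp2 passed in each of these fits, with adjusted p values of at most 0.0381 and 0.0448 without 1 library. Within P6362, which holds 1 mSOD library at P112, the differences were −2.09 for Plxna3 (adjusted p 0.0104), −1.06 for Nrp2 (0.001), −1.27 for Sema3a (0.00139) and 0.96 for Ephb2.

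**Figure D3:**
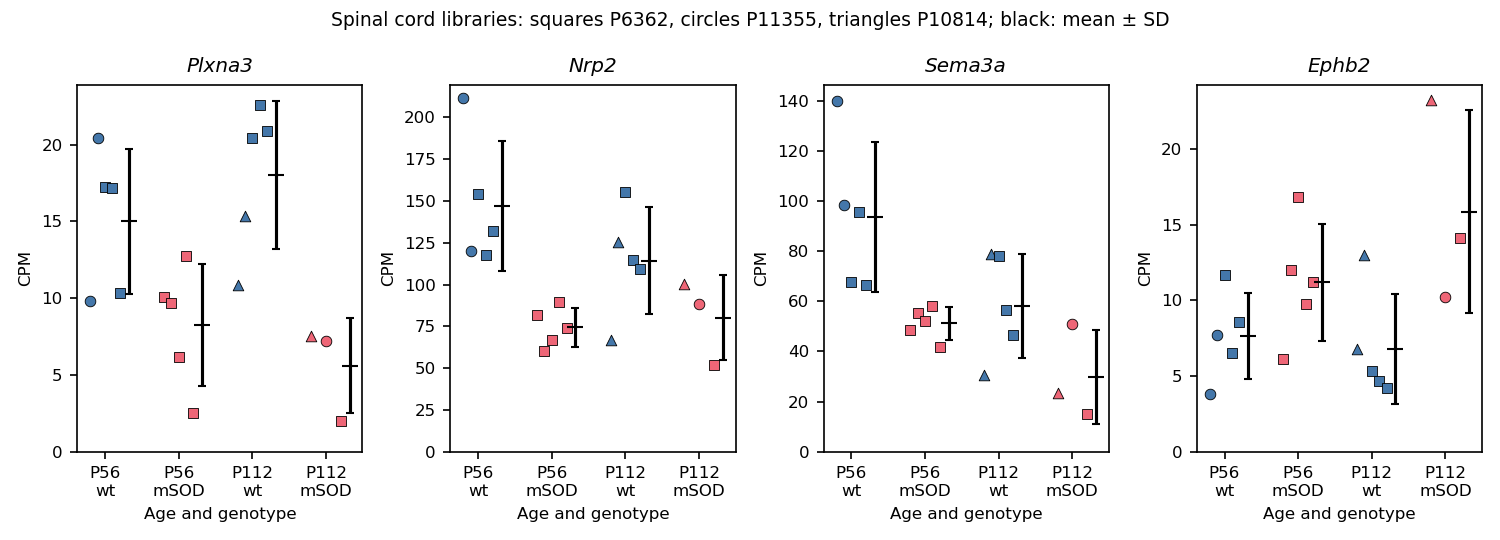
Plxna3, Nrp2, Sema3a and Ephb2 in the 18 spinal cord libraries (CPM, y axis) by age and genotype (x axis). Each point is a library with its project (the prefix of the library name) as the shape, and the black bar is the mean ± SD. The mSOD libraries of Nrp2 and Sema3a at P56 lie below the wild-type ones, and those of Ephb2 overlap them at both ages.

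At single ages, 0 of the 57 genes were called in SC (5 at P56 and 11 at P112 with an unadjusted p under 0.05), where 0.541% and 0.47% of all genes were called. DESeq2 called 1 guidance gene at P56 and 2 at P112, each lower in mSOD (311 and 190 genes over all). Without the filter on low counts 1 and 3 guidance genes passed with edgeR (389 and 265 over all). Without SC P56 wild-type replicate 2 the count at P56 was 1 (92 over all genes). Without SC P112 wild-type replicate 1 that at P112 was 2 (174 over all genes). In the cranial nuclei, edgeR called 0 guidance genes at either age: 2 and 0 had an unadjusted p under 0.05 in CN3/4, 6 and 1 in CN10, and 3 and 4 in CN12, at P56 and P112 in that order. The shares of all genes called were 0%, 0%, 0.0162%, 0%, 0.00541% and 0.0703%. Averaged over both ages it was again 0 in CN3/4, CN10 and CN12 (1, 5 and 7 genes unadjusted; 0.00541%, 0.0216% and 0.0487% of all genes). DESeq2 also called 0 in each of these 9 cranial comparisons. Without the filter on low counts edgeR called 1 guidance gene in CN3/4 at P56, 1 in CN12 at P56 and 2 in CN12 over both ages. Over all genes those fits called 41, 133 and 179. The genes with the smallest p were Ephb3 in CN3/4 (−1.85, SE 0.66, adjusted p 0.839), Sema7a in CN10 (−1.37, SE 0.49, adjusted p 0.526) and Dcc in CN12 (−1.02, SE 0.31, adjusted p 0.318).

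**Figure D4:**
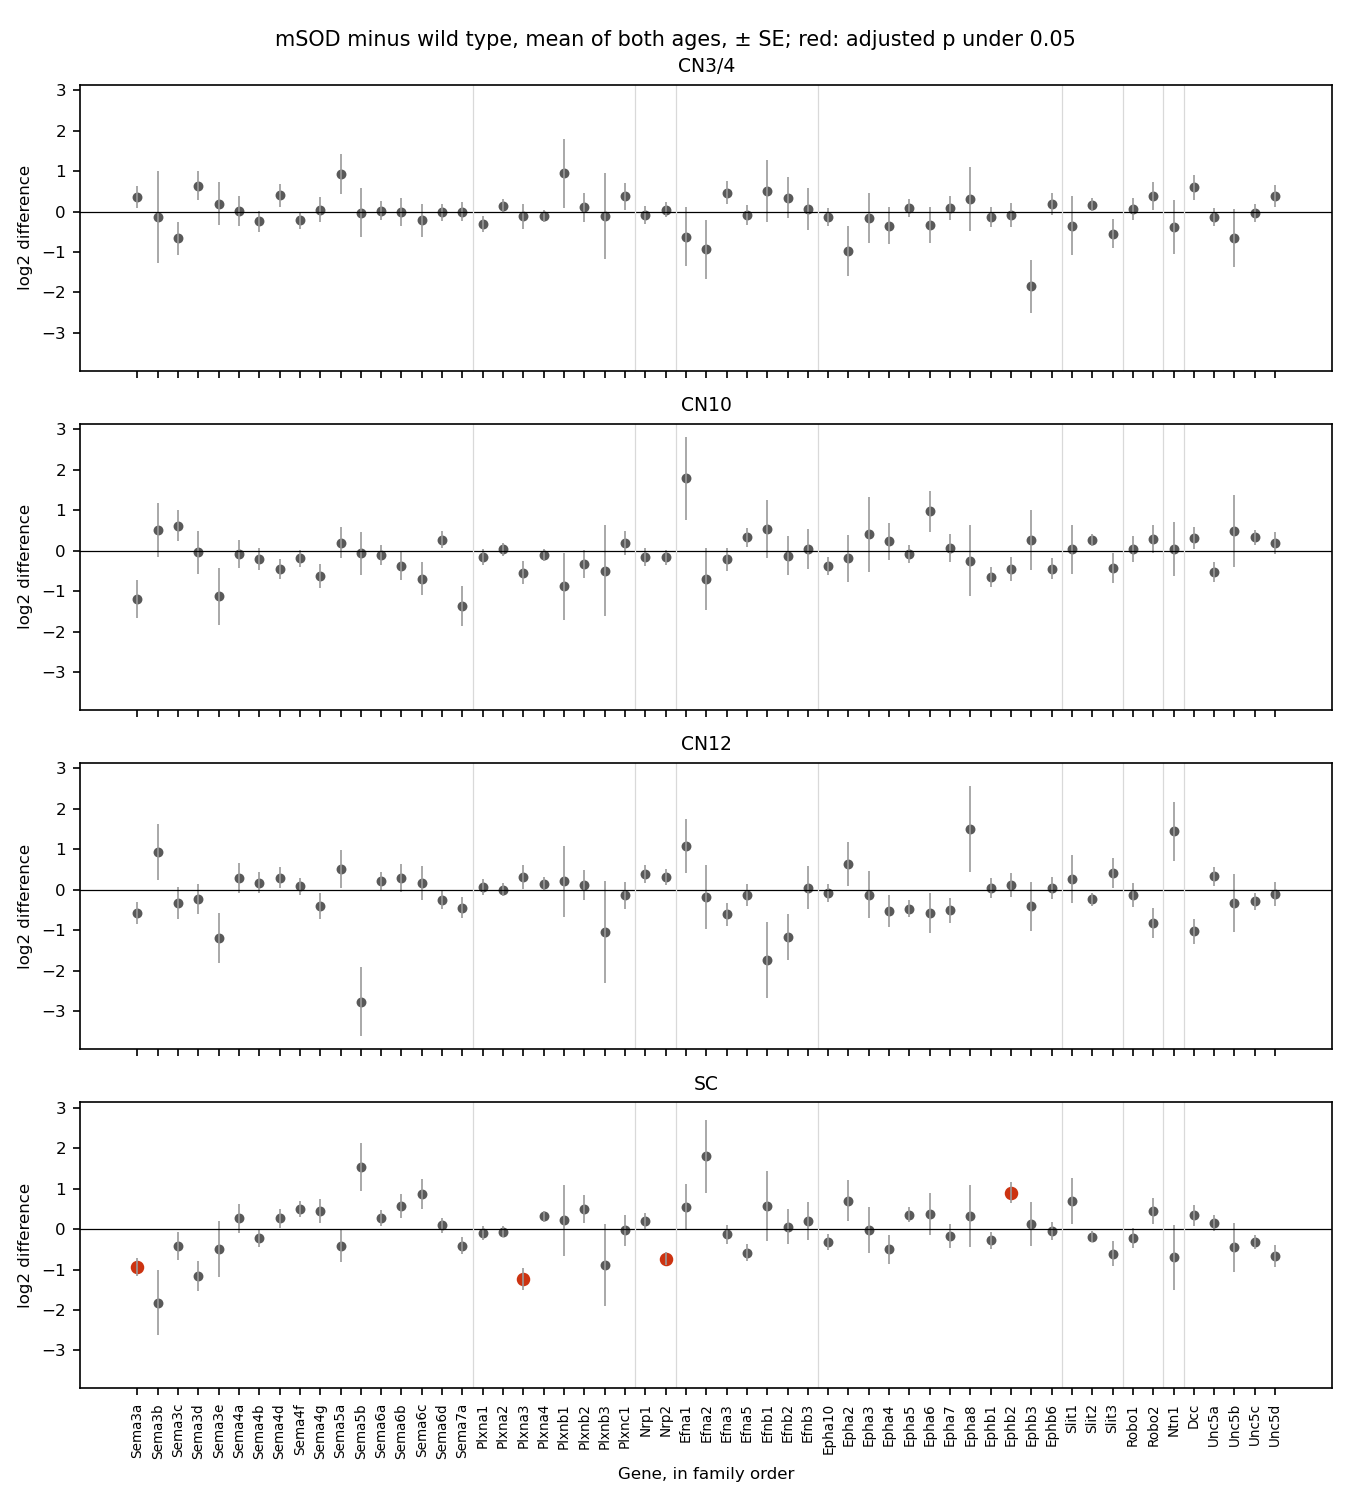
Genotype differences (mSOD minus wild type, mean of both ages, log2, y axis; bars are ± SE) of the 57 tested guidance genes (x axis, in family order) in each nucleus. The 4 genes in red, all in SC, had an adjusted p under 0.05: Sema3a, Plxna3 and Nrp2 below 0 and Ephb2 above.

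Whether SC responded differently from CN3/4 was tested as the difference of the genotype effects. It was called for 0 of 57 genes at P56 (4 unadjusted) and 0 at P112 (7 unadjusted), where 0.00541% of all genes were called at each age. The smallest p belonged to Nrp2 at P56 (−0.96, SE 0.35, adjusted p 0.638) and to Sema3a at P112 (−1.81, SE 0.53, adjusted p 0.335). Ephb2 and Sema3d followed at P112 with 1.69 (SE 0.57) and −2.24 (SE 0.80). Epha4, studied as a modifier of disease in this model, had genotype differences over both ages of −0.50 in SC (SE 0.35), −0.35 in CN3/4, 0.23 in CN10 and −0.52 in CN12, none of them called. Microglial markers, a list of 15, summed to 48.1 to 129 CPM in SC P112 mSOD (8 to 15 detected) and to 14.4 to 27.9 CPM in SC P112 wild type, with Tmem119 at 0 in 15 of the 18 SC libraries. Interneuron markers, a list of 10, summed to 208.4 to 706 CPM in SC P112 mSOD and 53.3 to 494 CPM in wild type; the part of either in the P112 values was not tested.

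Genes that act beside or below these families were taken from 2 lists. In a list of 20 other cues and receptors (19 tested), which holds the netrin-G ligands, repulsive guidance molecules, neogenin and cell adhesion molecules of the L1 and NCAM type, 9 were higher and 4 lower in CN10 than in SC (68.4% of the list called, 37.7% of all genes). Rgma, a membrane-anchored ligand of neogenin, was higher in CN10 than in SC by 4.22 (SE 0.51, adjusted p 1.9e-09), its receptor gene Neo1 by 2.16, Ncam1 by 2.12, Ntng1 by 1.98 and L1cam by 1.80. Against SC, CN3/4 had 4 higher and 3 lower (36.8% of the list, 15.5% of all genes), and CN12 had 3 higher and 1 lower (21.1%, against 6.15%), with Ncam1 and Rgma higher in both. In a list of 53 genes of guidance signalling inside the cell (52 tested), 11 were higher and 14 lower in CN10 than in SC, 8 and 7 in CN3/4 and 1 and 1 in CN12. These were 48.1%, 28.8% and 3.85% of the list, beside 37.7%, 15.5% and 6.15% of all genes. Trio, a guanine nucleotide exchange factor downstream of Dcc, was lower in CN10 than in SC (−1.38, SE 0.14) and higher in CN3/4 than in SC (0.75, SE 0.14). Vav3 and Mical2, which act downstream of Eph receptors and plexins, were lower in CN10 by 3.92 and 2.76. In SC of mSOD mice over both ages, Ncam1 rose by 0.51 (SE 0.13, adjusted p 0.0135) and Ret, the receptor of glial cell line-derived neurotrophic factor, by 0.38 (SE 0.11, adjusted p 0.0349), where 2.8% of all genes were called, and 0 of the 52 signalling genes passed with edgeR.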

How the data were processed

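RNA of 54 laser-captured motor neuron libraries was sequenced with Smart-seq2, per the labels' protocols. The authors deposited a table of raw counts per gene, used for every test, and a table of RPKM values, used for levels between genes only. The submitters' processing notes name STAR 2.7.0e and mm39 (GRCm39) with no role; how reads were counted is not given in the sources used here. Counts were fitted with edgeR 4.0.16 (R 4.3.3; TMM scaling, filterByExpr, robust quasi-likelihood F test), all 54 libraries in 1 model with 16 groups and a term for project. Project is the prefix of the library name, which the labels do not explain. P-values were adjusted by Benjamini-Hochberg over 18493 genes per comparison (threshold 0.05). Differences are on the log2 scale; CPM uses TMM-scaled library sizes. Replicates are biological by the submitters' account, but their animals are not named. The p-values measure only the spread between these libraries, and the labels do not show whether each is a separate animal. Genes named between nuclei were those called with a log2 difference of at least 1, up to 15 per direction; for genotype, those called or else the 3 of smallest p; the highest member of each family by RPKM; Epha4, Sema3a, Nrp1, Dcc, Ntn1, Slit2, Robo1, Robo2 and the Unc5 genes always; and up to 5 genes per pathway list and comparison. Other genes were named after their values were seen. The genes and lists were chosen with earlier results of these data known. Alternatives were RLE size factors, DESeq2 1.42.0, no filter, no project term, only the groups compared, P6362 alone, leaving out each library (with the full fit's dispersion trend kept) and, added after seeing the data, leaving out P6362. The fits were tested on simulated data. Promoters came from RefSeq (GRCm38.p6), a build other than that of the notes, and no coordinate was joined to the counts.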

Additional observations from a re-analysis of the deposited data

Results flagged for a closer look

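In the 3 SC groups of 5 libraries, 7 of 147 pairs of a gene and a group held 1 library far from the other 4 on the log2 CPM scale (prior count 2); chance flags about 1 in 20. With a prior count of 0.5 it was 8 pairs, of which 5 were the same. Sema3c was at 0.84 in SC P56 mSOD replicate 2 (1.30 CPM), where the others lay between 3.76 and 4.37. Unc5d was at 0.69 in SC P56 mSOD replicate 3 (1.12 CPM; others 3.55 to 4.27), and Epha7 at 1.15 in SC P56 wild-type replicate 3 (1.73 CPM; others 3.34 to 4.04). Unc5b was at −1.03 in SC P56 mSOD replicate 2, with no count, where the others lay between 0.69 and 1.18. On the high side, Plxnb1 was at 3.23 in SC P56 mSOD replicate 4 (8.88 CPM) and Epha8 at 1.79 in the same library (2.96 CPM), with the others of both genes between −1.03 and −0.23. Efnb1 was at −0.11 in SC P56 wild-type replicate 2 (0.440 CPM) and had no count in the other 4.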

How the results depend on the processing

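No direction of a named difference reversed: of its values under the alternatives, 2822 kept their side of the threshold, 128 lost it and 16 gained it. Without the project term, the number of guidance genes called was 23 for CN3/4 against SC in mSOD, 14 for CN12 against SC in wild type, and 1 each for genotype in SC at P56 and at P112. Over all genes those fits called 3404, 1735, 178 and 88, in the same order. With only the groups compared, the number of guidance genes called in mSOD was 6, 14 and 1 for CN3/4, CN10 and CN12 against SC. Those fits tested 50 guidance genes and called 616, 2246 and 376 of all genes. DESeq2 called 311 of all genes for SC P56 and 190 for SC P112. The fits without the filter on low counts tested 66 guidance genes. Over all genes they called 389, 265, 786, 133, 179, 41 and 105, in the order of the comparisons below. The main fit called 100, 87, 517, 1, 9, 0 and 1. The number of guidance genes called with DESeq2 was 1 of 50 tested for SC P56 and 2 of 54 for SC P112. Without the filter on low counts it was 1 for SC P56, 3 for SC P112, 7 for SC over both ages, 1 for CN12 P56, 2 for CN12 over both ages, 1 for CN3/4 P56 and 1 for SC minus CN3/4 at P112, and P6362 alone gave 1 for SC P56. Leaving out 1 library gave, in wild type, 16 to 20 (CN3/4 against SC), 30 to 33 (CN10 against SC), 4 to 10 (CN12 against SC), 14 to 19 (CN3/4 against CN12), 29 to 33 (CN10 against CN12) and 33 to 37 (CN3/4 against CN10), and in mSOD, in the same order, 8 to 12, 25 to 33, 8 to 15, 22 to 26, 31 to 36 and 31 to 36. For genotype it gave 0 to 1 in SC at P56, 0 to 2 at P112 and 2 to 4 over both ages, and 0 in the other genotype comparisons. Without P6362, added after seeing the data, CN3/4, CN10 and CN12 differed from SC in 15, 30 and 9 genes. The cause of these changes was not tested. All 5 SC P56 mSOD libraries come from P6362, as do 3 of the 5 wild-type ones. Low genes limit the rest: Plxna3 and Ephb2 had as few as 6 counts in an SC library. No paired analysis was possible because the replicate numbers are accession order and pair no samples.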
